A study of Ovis aries with 40 samples.

Results

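RNA-seq of distal lung from CFTR-/- (CF) and wild-type (WT) sheep fetuses at 120 days of gestation was compared, a comparison that rests on 4 of the 40 libraries of the series, 2 for each genotype. Members were taken by their labels alone, as the distal lung libraries of day 120, and they are set here against the remaining 16 distal libraries (days 65, 80, 100 and term, 2 for each genotype and age) and against proximal lung of the same 4 animals. All sheep were American Romney. The CF fetuses came from somatic cell nuclear transfer, with male fetal fibroblasts whose CFTR exon 2 had been targeted, and were carried by recipient ewes, whereas the WT fetuses came from ewes bred to a ram. The sex of the WT fetuses was not given in the sources used here, and their sample identifiers share a stem whose meaning is not stated. Each library was made with oligo dT priming from RNA of a piece of frozen tissue. Genotype and the way the fetuses were conceived cannot be told apart, and nothing in the labels says whether the 2 libraries of a genotype came from separate pregnancies, so the p-values measure only the spread between libraries of 1 genotype and age, pooled over the 20 distal libraries of all ages. The WT animals of term had been born naturally, so that in every comparison with term they were newborns rather than fetuses.

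The distal lung near the end of gestation is lined by alveolar type 2 (AT2) cells, which make and secrete surfactant, a film of lipid and protein that lowers surface tension, and by alveolar type 1 (AT1) cells, thin cells that form the gas exchange surface. Beneath them lie fibroblasts, smooth muscle and myofibroblasts, which lay down collagen and elastic fibres, and a dense bed of capillary endothelium. CFTR is an apical chloride and bicarbonate channel of the epithelium, and fetal lung secretes fluid through chloride channels until birth.

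CFTR itself was not lost from the RNA of the CF libraries. Its normalised read count, in CPM, reads scaled to the size of each library, was 11.2 and 13.3 in the WT libraries and 11.2 and 5.86 in the CF libraries, a log2 fold change (CF minus WT) of -0.52 ± 0.26 (SE, n = 2 per genotype) that did not pass (adjusted p = 0.289, edgeR's quasi-likelihood test, Benjamini-Hochberg adjusted across the whole table). These are counts over the whole gene (chr4:50644000-50864925, Oar_v4.0), not over the targeted exon, so they check the label only weakly. Distal lung tissue was a mixture of cells by its defining genes: SFTPC and AGER, which define AT2 and AT1 cells, were at 1697 to 4641 CPM and 387 to 902 CPM in the 4 libraries, and the stromal and vascular genes COL1A2 and PECAM1 at 1701 to 3378 CPM and 505 to 712 CPM. In bulk RNA, fewer cells of a type and less RNA per cell cannot be told apart.

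Depth moved with genotype. The WT libraries of day 120 held 24670355 and 40601998 counted reads and the CF libraries 86480033 and 94449264, and a count of 3, taken as the floor, was 0.122 and 0.0739 CPM in WT against 0.0347 and 0.0318 CPM in CF. Mitochondrial transcripts took 2.14% and 2.06% of WT reads and 1.73% and 1.62% of CF reads. The same imbalance ran through the 8 libraries of each genotype before term (24670355 to 43700012 reads in WT, 85773994 to 103139483 in CF). A lncRNA on the X chromosome, LOC101112291 (chrX:62537188-62573407), was named here after its values were seen. It stood at 962 and 964 CPM in the WT libraries and at 0.0108 and 0.105 CPM in CF. It was called (adjusted p = 0.0343), but not with any 1 of the 4 libraries left out (0.0911 to 0.162). It lies between CHIC1 and MIR374B, which in other mammals flank the X-inactivation centre, and the sources used here pair it with no other name. It was at 405 to 1316 CPM in 8 of the 10 distal WT libraries, at or below 0.177 CPM in the other 2 and at or below 0.270 CPM in all 10 CF libraries, and a difference in fetal sex, which the sources used here do not give for WT, cannot be told apart from genotype.

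Of 20084 genes tested, 18 were differentially expressed genes (DEGs) by the limits of the study (0.0896% of genes), which ask for an adjusted p no higher than 0.001 and a log2 difference of at least 0.58 in either direction. These were 13 genes higher and 5 lower in CF. The paper reports many more DEGs for this comparison at the same limits. Its edgeR analysis is described with tagwise dispersion, whereas the fit used here is quasi-likelihood. At an adjusted p of 0.05 or less by edgeR on all 20 distal libraries, the call used below and meant by edgeR where no other set of libraries or setting is named, 662 genes were higher in CF (3.30%) and 218 were lower (1.09%), out of 4038 with an unadjusted p below 0.05. Both CF libraries lay above both WT libraries for 24.4% of all genes tested and below them for 19.5%, and each of the 880 called genes was among these. The median log2 fold change over all genes was 0.04. With every library thinned to 24670355 reads, the depth of the shallowest, there were 13 DEGs and 962 calls at 0.05. Of the calls named in the text, 53 were followed through such alternatives, all but ADCY4 and REC8, and these 53 were kept. A fit on the 4 libraries of day 120 alone called 0 DEGs and 1 gene at 0.05, LOC101112291. The same 53 genes kept their direction in it, which the lack of overlap between genotypes all but fixed. By DESeq2, 561 DEGs and 2123 genes at 0.05 were called, of which 61.6% were higher in CF against 75.2% by edgeR. The balance rested on the libraries included. Without CF replicate 2 it turned, with more genes lower than higher, and without CF replicate 1 the share higher in CF was larger still. With WT replicate 1 or WT replicate 2 left out, far fewer genes were called.

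**Figure D1:**
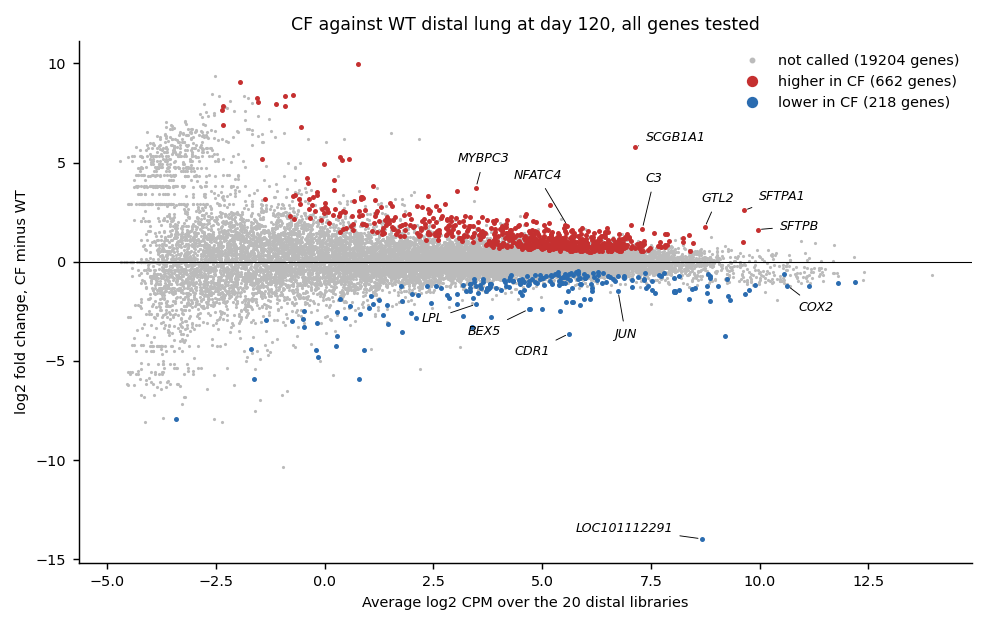
Difference between genotypes against level for the genes tested in distal lung at day 120. The horizontal axis is the average log2 CPM over the 20 distal libraries and the vertical axis the log2 fold change, CF minus WT. Red points mark the 662 genes higher in CF and blue points the 218 lower at an adjusted p of 0.05 or less, grey points the remainder. Most called genes lie above 0, and CDR1, BEX5 and LOC101112291 are among those far below it.

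Gene length also moved with the difference. With genes split by exon length into 4 bins of 5021, the median log2 fold change was -0.16, 0.01, 0.11 and 0.16 from the shortest bin to the longest. The shortest bin held 68 genes called higher and 113 called lower, the longest 218 and 21. The part of fragment length or RNA quality in this was not tested. With a trend of each library on gene length taken out, 724 genes were higher and 445 lower. Of the 53 named calls that were followed, all but 1 (ND2) were kept.

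The DEGs included no member of the AT2 or AT1 lists used below. MYBPC3 (chr15:75304260-75322007), which encodes cardiac myosin-binding protein C, was at 2.23 and 2.63 CPM in WT and 30.3 and 34.8 CPM in CF, 13.4-fold higher (log2 fold change 3.74 ± 0.29, adjusted p = 4.6e-05). TNNT2, a defining gene of heart muscle, had no reads in WT and was at 0.0864 and 0.127 CPM in CF, near the floor. NFATC4, a calcium-regulated transcription factor, was at 25.2 and 22.0 CPM in WT and 81.3 and 84.8 CPM in CF (1.82 ± 0.15, adjusted p = 5.65e-05). Its exons overlap the opposite-strand gene LOC105608561, and whether reads were counted by strand was not given in the sources used here. RIPK3, a kinase of necroptosis, rose from 9.31 and 11.2 CPM to 39.5 and 30.6 CPM (1.78 ± 0.21). GABBR1, a subunit of the GABA-B receptor, rose from 31.6 and 31.1 CPM to 102 and 89.1 CPM (1.61 ± 0.15). Also higher were DNAH17, a sperm axonemal dynein whose exons overlap the opposite-strand gene PGS1 (1.85 and 2.58 against 14.8 and 12.6 CPM), HGFAC, the activator protease of hepatocyte growth factor (1.68 and 1.55 against 9.24 and 9.77 CPM), and KCNIP2, a subunit of potassium channels (3.45 and 3.68 against 16.6 and 17.8 CPM). FAM193B, the ubiquitin ligase adaptor ZSWIM8 and ST5 differed by 1.30, 1.24 and 1.18 on the log2 scale. The rule that named these DEGs took only genes whose genotypes did not overlap.

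On the other side, CDR1 (chrX:89397004-89399137) was at 37.2 and 45.6 CPM in WT and 4.68 and 2.03 CPM in CF, and fell by 3.63 ± 0.40 on the log2 scale (adjusted p = 7.86e-04; -4.35 without CF replicate 1). BEX5, a small X-linked protein, was at 18.9 and 30.3 CPM in WT and 3.79 and 5.55 CPM in CF (-2.40 ± 0.30). The remaining 6 DEGs, named here after their values were seen, were CABP5 and 5 loci without a symbol. CABP5, a neuronal calcium-binding protein, had 1 read in each WT library and 123 and 99 reads in CF. LOC106991688 fell from 1610 and 999.6 CPM to 63.5 and 133 CPM (-3.73, or -4.40 without CF replicate 2), LOC101118825 by 2.05 and LOC105604520, which overlaps ACAA2 on the opposite strand, by 4.44 on the log2 scale. LOC106991246 rose by 2.21, and LOC101112542, the X-linked neighbour of LOC101112291, was at 146 and 136 CPM in WT and 384 and 357 CPM in CF (1.39 ± 0.15). All 18 DEGs still passed at 0.05 with any 1 of the 4 libraries left out (highest adjusted p = 0.0273), but at the limits of the study 0 DEGs were left without either WT library, 2 without CF replicate 1 and 12 without CF replicate 2.

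Among the alveolar lists, AT2 genes held the most calls. Of 25 AT2 genes tested, 5 were higher in CF and 0 lower by edgeR (6 and 0 by DESeq2), with a list median of 0.55 (0.25 without CF replicate 1). Both CF libraries lay above both WT libraries for 12 and below for 2. Of all genes tested, edgeR called 3.30% higher and 1.09% lower, and 24.4% and 19.5% lay above and below in this way. These shares belong beside each list below, where 1 gene called higher of 20 or more is little beyond them. SFTPA1 (chr25:35170066-35174178), which encodes surfactant protein A, a collectin that binds microbes, was at 229 and 187 CPM in WT and 1226 and 1271 CPM in CF. The genotypes did not overlap, and the fitted level was 6-fold higher in CF (2.58 ± 0.62, adjusted p = 0.0290). SFTPB (chr3:57216253-57228146), whose product is needed to spread the surfactant film, was at 540.0 and 573 CPM in WT and 1729 and 1696 CPM in CF, 3.08-fold higher (1.62 ± 0.37, adjusted p = 0.0237). SFTPD, the second lung collectin, was at 97.5 and 151 CPM against 299.5 and 385 CPM (1.46 ± 0.39, adjusted p = 0.0477). The study measured SFTPA1 and SFTPB by RT-qPCR too, and its primers, 5′ to 3′ with no base marked, are shown as the sequences by which these transcripts were assayed. They were not matched here to the gene models behind the read counts.
SFTPA1 forward: gagagaggtcctccagggtt
SFTPA1 reverse: ggacccctgcaaaatgagga
SFTPB forward: cctcagacacaggacctctc
SFTPB reverse: acagtcatggccagtacacc

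A gene that processes surfactant protein and a gene that packs surfactant lipid were also higher. NAPSA, a protease that cleaves the surfactant protein B precursor, was at 9.18 and 4.60 CPM in WT and 51.9 and 46.7 CPM in CF, 7.22-fold higher (2.85 ± 0.56, adjusted p = 0.0107). ABCA3, the lipid transporter of the lamellar bodies in which surfactant is stored, was at 12.5 and 17.1 CPM against 57.9 and 56.4 CPM, 3.85-fold higher (1.95 ± 0.43, adjusted p = 0.0185). SFTPC, whose product is the hydrophobic surfactant protein C, did not pass: WT was at 1697 and 2176 CPM and CF at 2235 and 4641 CPM (0.83 ± 0.63, adjusted p = 0.510). Per length, SFTPC averaged 1577 RPKM in WT and 2799 RPKM in CF, SFTPB 192 and 592 RPKM and SFTPA1 112 and 670.2 RPKM, so that SFTPC stayed above SFTPB, and SFTPA1 lay below SFTPB in WT but above it in CF. Each of the 5 calls was lost when a WT library was left out (adjusted p 0.0636 to 0.329 without replicate 1, 0.0898 to 0.200 without replicate 2). Without CF replicate 1 all but NAPSA were lost (highest adjusted p = 0.0714), and without CF replicate 2 only SFTPD was (0.108).

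**Figure D2:**
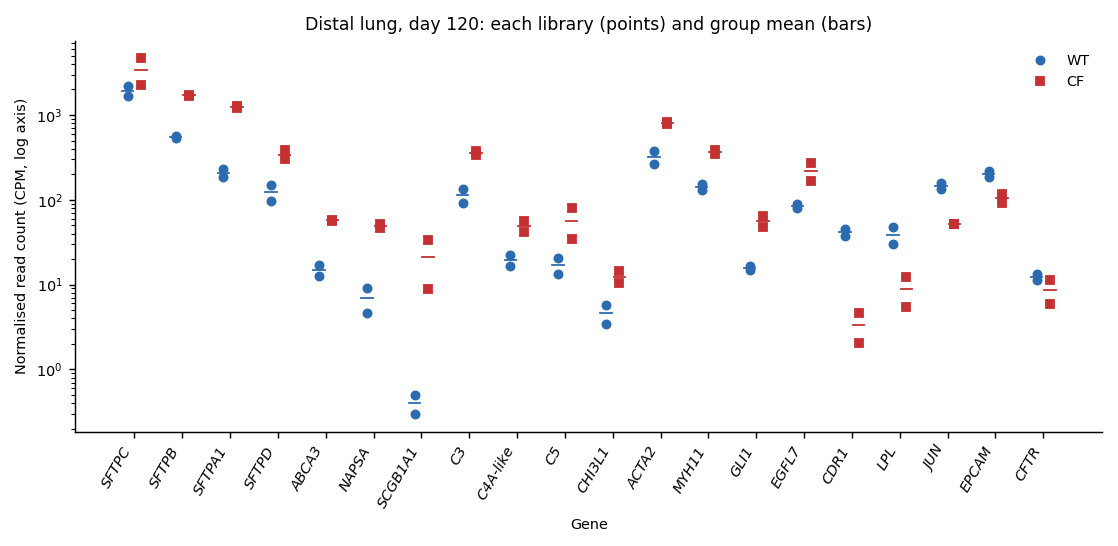
Normalised read count (CPM, log axis) of 20 genes in the 4 distal libraries of day 120. Points are single libraries, WT as circles and CF as squares, and bars are group means. SFTPA1, SFTPB, NAPSA, ABCA3 and C3 are higher in both CF libraries, CDR1, LPL and JUN are lower in both, and CFTR in the CF library with the higher level lies beside WT.

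AT1 genes were not called by edgeR on the 20 libraries as deposited. Of 23 tested, 0 passed in either direction and 4 had an unadjusted p below 0.05. Other settings called up to 3: edgeR on counts thinned to equal depth called 1 higher, as did the replicate block, edgeR without CF replicate 2 and DESeq2 each called 1 higher and 1 lower, and edgeR on the 16 libraries before term called 2 higher and 1 lower. The list median was 0.04, but 0.22 without WT replicate 1, -0.16 without WT replicate 2 and -0.17 without CF replicate 1. AKAP5, a scaffold that anchors protein kinase A, came nearest, at 2.95 and 2.35 CPM in WT and 6.88 and 4.34 CPM in CF (1.09 ± 0.30, adjusted p = 0.0545), without overlap. AGER, the receptor that marks AT1 cells, was at 596 and 387 CPM in WT and 524 and 902 CPM in CF, overlapping ranges (0.54 ± 0.44). HOPX, a homeobox cofactor of AT1 cells, was at 158 and 163 CPM against 86.7 and 125 CPM (-0.60 ± 0.26, adjusted p = 0.203). CLDN18, a tight junction claudin of the alveolus, was at 431 and 420 CPM against 222 and 292 CPM (-0.73 ± 0.25, adjusted p = 0.117). Among 16 genes of distal tip progenitors, the multipotent cells of the growing branches, 1 was higher. This was ETV4, a transcription factor downstream of FGF signalling, at 9.43 and 8.22 CPM in WT and 19.7 and 29.4 CPM in CF (1.48 ± 0.36, adjusted p = 0.0323), lost without WT replicate 1 (0.178), WT replicate 2 (0.201) or CF replicate 2 (0.0977). SOX9, which marks the same cells, was at 5.81 and 11.1 CPM against 12.7 and 11.9 CPM (0.53 ± 0.38, adjusted p = 0.469).

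Among 20 airway secretory and defence genes, 1 was higher. SCGB1A1 (chr21:40088778-40092079), the secretoglobin of club cells, had 12 reads in each WT library (0.505 and 0.30 CPM) and 830 and 3218 reads in CF (8.97 and 33.9 CPM), 55.7-fold higher (5.80 ± 0.96, adjusted p = 0.00453). Without WT replicate 1 or 2 the adjusted p was 0.0656 or 0.0827. The size of the difference rests on which CF library is used, at 6.46 on the log2 scale without CF replicate 1 and 4.51 without CF replicate 2, both of which passed. Its companion SCGB3A2 spread as widely within a genotype as between them, at 10.4 and 113 CPM in WT and 107 and 36.4 CPM in CF (0.21 ± 1.32). BPIFB1, a secreted airway defence protein, was at 0 and 5.199 CPM in WT and 8.30 and 4.51 CPM in CF (adjusted p = 0.694). WFDC1 and WFDC2, whey acidic protein inhibitors, differed by 0.81 ± 0.30 and 0.69 ± 0.59 and did not pass. Of 20 ciliated cell genes 0 passed by edgeR or DESeq2 and 0 had an unadjusted p below 0.05. Their median was -0.44, but 0.67 without WT replicate 2 and -1.10 without WT replicate 1, so its sign rests on 1 library. Of 16 basal and neuroendocrine genes 0 passed by edgeR on the 20 libraries and 3 had an unadjusted p below 0.05, while DESeq2 called 1 lower and edgeR without CF replicate 2 called 2 lower.

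Genes of ion and water transport were mostly not called, with 1 lower and 0 higher of 23 by edgeR. DESeq2, the replicate block and the fit without CF replicate 2 each called 1 higher as well, and the 16 libraries before term 2. Without CF replicate 1, 2 were lower. ATP1B1, the beta subunit of the sodium pump, was at 139.6 and 143 CPM in WT and 45.7 and 65.3 CPM in CF, and fell by 1.35 ± 0.17 (adjusted p = 0.00113), though its exons overlap the opposite-strand gene NME7. The sodium channel subunits SCNN1A (14.5 and 11.7 against 17.2 and 8.40 CPM) and SCNN1B (12.4 and 23.8 against 16.3 and 21.9 CPM) overlapped between genotypes, with log2 fold changes of -0.03 ± 0.42 and 0.07 ± 0.29. ANO1, a calcium-activated chloride channel, was at 114 and 123 CPM in WT and 87.1 and 105 CPM in CF (-0.31 ± 0.20, adjusted p = 0.434), after being higher in CF by 1.52 at day 65 and 1.01 at day 80 and before being lower by 1.70 at term. SLC26A9, an anion exchanger and channel that acts with CFTR, was at 14.9 and 18.2 CPM against 32.5 and 39.0 CPM, but the fit gave an adjusted p of 0.258 (1.11 ± 0.53). Of 20 genes of epithelial junctions, 1 was lower and 1 higher by edgeR, and DESeq2 called 2 lower and the replicate block 3. EPCAM, the epithelial cell adhesion molecule, fell from 184 and 221 CPM to 92.7 and 117 CPM (-0.95 ± 0.15, adjusted p = 0.00387). ST14, which encodes matriptase, an activator of epithelial sodium channels, was at 66.9 and 73.4 CPM in WT and 121 and 111 CPM in CF (0.72 ± 0.15, adjusted p = 0.0152). CDH1, the epithelial cadherin, was at 189.5 and 194 CPM against 318 and 176 CPM and TJP1, a tight junction scaffold, at 439 and 353 against 595 and 363 CPM, neither of which passed. The EPCAM call was lost without WT replicate 2 (adjusted p = 0.0569), and the ST14 call without WT replicate 1, WT replicate 2 or CF replicate 1 (0.178, 0.0836 and 0.0585).

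Of 19 smooth muscle and myofibroblast genes tested, 4 were higher (3.30% of all genes) and 0 lower by edgeR, with a list median of 0.58. For 12 both CF libraries lay above both WT libraries (24.4% of all genes). DESeq2 and the replicate block each called 6 higher and 1 lower, and 1 was also lower with the length trend, with the 16 libraries before term and without CF replicate 1. MYH11, the smooth muscle myosin heavy chain, was at 155 and 129 CPM in WT and 391 and 349 CPM in CF, 2.61-fold higher (1.38 ± 0.24, adjusted p = 0.00621). ACTA2, smooth muscle actin, was at 381 and 262 CPM against 793 and 837 CPM (1.34 ± 0.31, adjusted p = 0.0253). CNN1, which encodes calponin, was at 16.8 and 15.3 CPM in WT and 59.4 and 27.9 CPM in CF (1.45 ± 0.38, adjusted p = 0.0427). ITGA7, a laminin receptor of muscle, was at 37.7 and 46.2 CPM against 123 and 121 CPM (1.54 ± 0.20, adjusted p = 0.00118), with METTL7B overlapping its exons on the opposite strand. TAGLN, which encodes transgelin, did not pass, at 156 and 119 CPM against 222 and 188 CPM (0.58 ± 0.20, adjusted p = 0.117), although its genotypes did not overlap. The MYH11, ACTA2 and CNN1 calls were lost without WT replicate 1 (highest adjusted p = 0.222) or WT replicate 2 (0.228), ACTA2 and CNN1 also without CF replicate 1 (up to 0.298). Without CF replicate 1 the CNN1 difference was 0.79. Of 13 pericyte genes 0 passed by either tool and 2 had an unadjusted p below 0.05.

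Endothelial genes rose in 3 of 28 cases and fell in 0 by edgeR on the 20 libraries, with a list median of 0.25 (0.39 without WT replicate 1). DESeq2 called 7 higher and 1 lower, the 16 libraries before term 6 and 1, and the fit without CF replicate 2 called 2 and 1. EGFL7, secreted by endothelium around growing vessels, was at 79.5 and 88.5 CPM in WT and 167 and 273 CPM in CF (1.39 ± 0.24, adjusted p = 0.00632). ROBO4, a receptor of endothelium, was at 89.5 and 74.7 CPM against 150.2 and 203 CPM (1.11 ± 0.22, adjusted p = 0.0113). ESAM, an adhesion molecule of endothelial junctions, was at 107 and 113 CPM against 162 and 185 CPM (0.65 ± 0.16, adjusted p = 0.0349). The genes that define the cell type did not pass: PECAM1 overlapped between genotypes at 634 and 505 against 571 and 712 CPM, and CDH5 was at 551 and 481 against 715 and 639.7 CPM (0.39 ± 0.21, adjusted p = 0.316). All 3 calls were lost without WT replicate 1 (adjusted p 0.0764 to 0.237) or WT replicate 2 (0.0522 to 0.142), and ESAM also without CF replicate 2 (0.0859).

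Of 20 fibroblast genes, 1 was higher and 1 lower, with 9 positive and 11 negative log2 fold changes. The list median was -0.36 (-0.57 without CF replicate 2, -0.21 without WT replicate 1), and DESeq2 called 1 higher and 7 lower, the 16 libraries before term 1 and 6. GLI1, the transcription factor induced by hedgehog signals from the epithelium, was at 14.8 and 16.5 CPM in WT and 63.6 and 48.4 CPM in CF, 3.58-fold higher (1.84 ± 0.32, adjusted p = 0.00612). LPL, the lipoprotein lipase of lipid-storing fibroblasts, was at 47.3 and 30.1 CPM in WT and 12.2 and 5.38 CPM in CF and fell by 2.14 ± 0.45 (adjusted p = 0.0156; -2.85 without CF replicate 1). TCF21, which marks the same cells, was at 263 and 323 CPM against 111 and 197 CPM and narrowly missed the limit (-0.93 ± 0.25, adjusted p = 0.0514). PDGFRA, the receptor of alveolar fibroblasts, was at 252 and 207 CPM against 182 and 169 CPM (-0.39 ± 0.22, adjusted p = 0.365). The GLI1 call was lost without WT replicate 1 or 2 (adjusted p = 0.0964 and 0.0590) and the LPL call without WT replicate 1 or CF replicate 2 (0.134 and 0.0512).

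In the extracellular matrix, 0 of 18 collagens passed by edgeR on the 20 libraries or by DESeq2 and 3 had an unadjusted p below 0.05, with a list median of 0.27 (0.16 without WT replicate 1). The 16 libraries before term called 1 collagen higher. COL1A1 was at 1504 and 1662 CPM in WT and 3631 and 2962 CPM in CF, a difference of 1.06 ± 0.41 with no overlap that did not pass (adjusted p = 0.164), and COL1A2 was at 1701 and 1732 against 3252 and 3378 CPM (0.95 ± 0.44, adjusted p = 0.244). ELN, which encodes elastin, was at 1684 and 1739 against 2250 and 2397 CPM (0.44 ± 0.42). Of 20 elastic fibre genes 1 was higher, LTBP2, a fibrillin-binding protein, at 156 and 116 CPM in WT and 470.2 and 241 CPM in CF (1.39 ± 0.34, adjusted p = 0.0308). Of 23 other matrix genes 1 was higher, ASPN, a small proteoglycan, at 35.3 and 31.4 CPM against 77.1 and 67.3 CPM (1.12 ± 0.30, adjusted p = 0.0470). Both calls were lost without WT replicate 1 (0.134 and 0.205), WT replicate 2 (0.227 and 0.231) or CF replicate 1 (0.224 and 0.138), and without that CF library the LTBP2 difference was 0.82.

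Among the immune lists, complement held the most calls. Of 22 complement and acute phase genes tested, 3 were higher in CF (3.30% of all genes) and 0 lower by edgeR, with a list median of 0.40. For 13 both CF libraries lay above both WT libraries (24.4% of all genes). DESeq2 called 4 higher and 1 lower, and 1 was also lower with RLE scaling, the length trend, the replicate block and the 16 libraries before term. C3 (chr5:15367670-15401347), the central component of the cascade, was at 90.8 and 136 CPM in WT and 375 and 339 CPM in CF, 3.16-fold higher (1.66 ± 0.35, adjusted p = 0.0155). C5, cleaved after C3 to a chemoattractant fragment, was at 13.2 and 20.9 CPM against 79.0 and 34.1 CPM (1.72 ± 0.31, adjusted p = 0.00735). At the other ages WT C5 lay between 61.2 and 88.6 CPM, so both WT libraries of day 120 lay below all other WT distal libraries. LOC101123672 (chr20:26412306-26427047), the gene the study calls C4A, was at 22.6 and 16.5 CPM against 41.9 and 56.8 CPM (1.34 ± 0.26, adjusted p = 0.0113). C4 genes occur as near-identical copies, so how reads were split between them is uncertain. All 3 calls were lost without WT replicate 1 (adjusted p 0.0636 to 0.200), C3 and LOC101123672 also without WT replicate 2 (up to 0.132), and C3 and C5 without CF replicate 1 (up to 0.0573), where the C5 difference was 0.99.

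The study singled out further defence genes from day 120 against day 100 within CF distal lung, a different comparison. Between CF and WT at day 120 they did not pass. CHI3L1, a chitinase-like protein of inflamed tissue, was at 5.73 and 3.45 CPM in WT and 10.6 and 14.3 CPM in CF, without overlap (1.44 ± 0.42, adjusted p = 0.0632). KNG1, which encodes kininogen, was at 6.15 and 14.9 CPM in WT and 12.03 and 6.27 CPM in CF (-0.21 ± 0.92). CXCL8, the neutrophil chemoattractant interleukin 8, was at 2.95 and 0.775 CPM in WT and 4.98 and 1.34 CPM in CF (0.78 ± 0.87). Of 33 inflammatory mediators tested 0 passed by edgeR and 2 had an unadjusted p below 0.05, while DESeq2 called 2 higher and the replicate block and the 16 libraries before term 1 each. The primers the study used for CHI3L1, and for the C4A of the paragraph before, are shown 5′ to 3′ with no base marked. Which C4 copy was assayed by RT-qPCR depends on its primers. They were not matched here to the counted gene models.
C4A forward: gacagtagcacctggctcac
C4A reverse: ggataacaggacaggggtcg
CHI3L1 forward: ggacctagcatggctgtacc
CHI3L1 reverse: caatcttccctgcggacact

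Immune cell genes were mostly not called. Of 24 macrophage and monocyte genes, 1 was higher and 0 lower by edgeR, DESeq2 called 1 higher and 1 lower, 18 had a negative log2 fold change, and the list median was -0.46 (-0.58 to -0.30 with any 1 library left out, the smallest in size without CF replicate 1). The gene that passed was CD68, a lysosomal protein of phagocytes that is not restricted to them, at 15.2 and 18.1 CPM against 34.0 and 39.9 CPM (1.15 ± 0.30, adjusted p = 0.0405). This call was lost without any 1 of the 4 libraries (adjusted p 0.0632 to 0.264). CSF1R, the receptor that defines macrophages, was at 22.0 and 19.3 CPM against 17.3 and 19.3 CPM. Of 21 lymphocyte genes 0 passed by edgeR on the 20 libraries or by DESeq2, 1 had an unadjusted p below 0.05, and the median was -0.38 (-0.20 without CF replicate 1, and -0.82 with 1 called lower without CF replicate 2). PTPRC, the pan-leukocyte phosphatase CD45, was at 11.03 and 7.70 CPM in WT and 5.42 and 6.18 CPM in CF (-0.69 ± 0.44, adjusted p = 0.418). Of 14 neutrophil and mast cell genes 0 passed by edgeR on the 20 libraries or by DESeq2 and 2 had an unadjusted p below 0.05, while the 16 libraries before term called 1 higher. The summed level of the macrophage list was 450.3 and 362 CPM in WT and 316 and 422 CPM in CF, and that of the lymphocyte list 60.2 and 59.3 CPM against 34.0 and 54.9 CPM. The neutrophil and mast cell sum was 91.6 and 68.6 CPM in WT and 99.7 and 92.2 CPM in CF, above WT although 11 of its 14 genes had a negative log2 fold change.

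Among 22 interferon-induced genes 1 was higher by edgeR, and DESeq2 and the fit without CF replicate 2 each called 1 lower as well. The list median was 0.32, but -0.05 without WT replicate 2 and 0.60 without WT replicate 1. IRF9, the DNA-binding subunit of the interferon-activated complex, was at 35.3 and 27.4 CPM in WT and 56.0 and 74.3 CPM in CF (1.06 ± 0.21, adjusted p = 0.0108), and was lost without WT replicate 1 or 2 (0.0599 and 0.126). Of 9 class II antigen presentation genes tested, out of 17 listed, 0 passed by either tool and 1 had an unadjusted p below 0.05. Genes of erythroid precursors, which travel in fetal blood, had a negative log2 fold change in 13 of 14 cases. By edgeR on the 20 libraries 0 passed and 7 had an unadjusted p below 0.05, and DESeq2 called 4 lower and 1 higher. With counts thinned to equal depth or without WT replicate 2, 1 was called lower, and with the bias-adjusted fit, the replicate block or the 16 libraries before term 1 was called higher. The median was -1.50, but -0.65 without WT replicate 1 and -2.08 without WT replicate 2. Their summed level was 195 and 112 CPM in WT and 78.2 and 95.5 CPM in CF. The part of blood content in the immune cell lists was not tested.

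**Figure D3:**
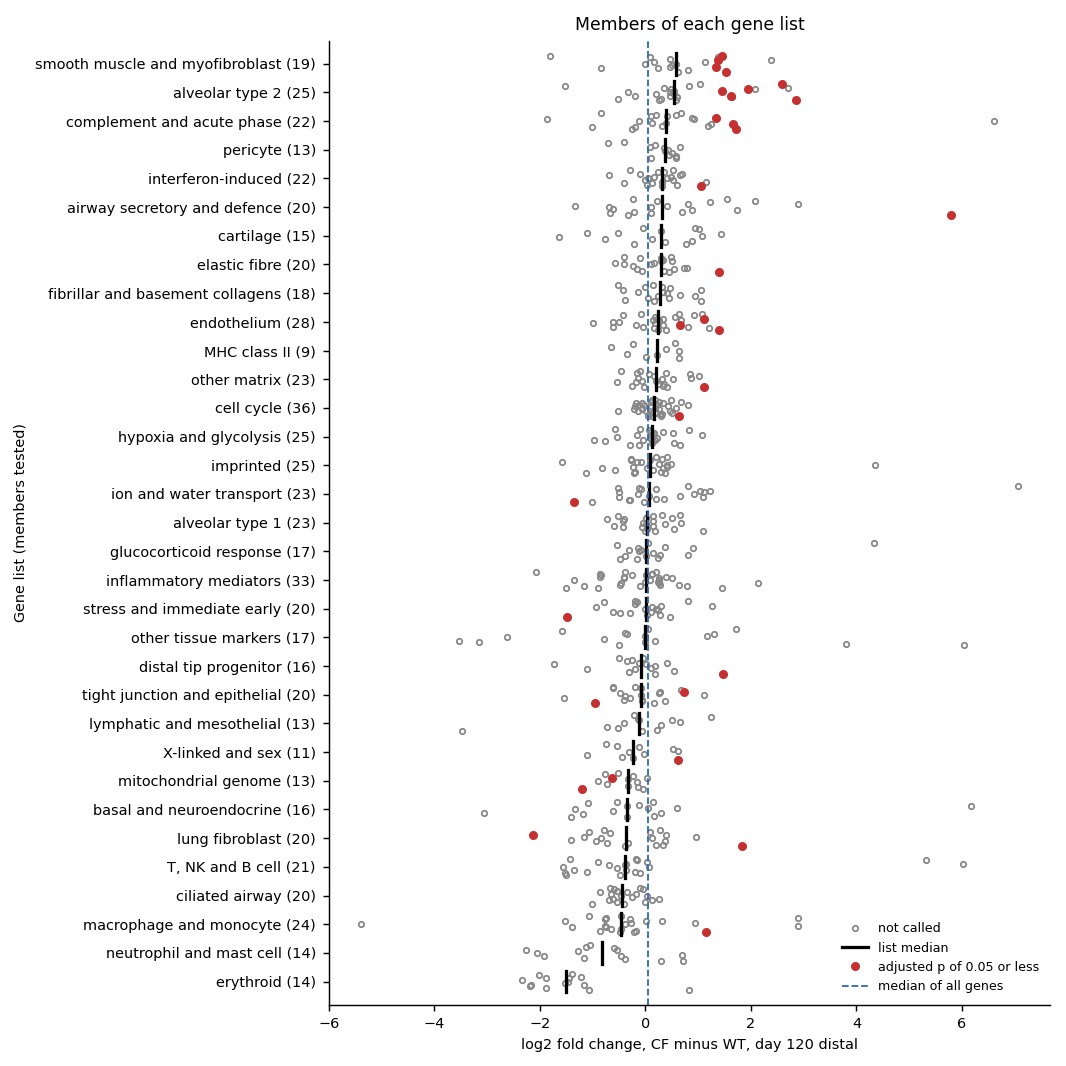
Members of each gene list by their log2 fold change, CF minus WT, in distal lung at day 120. Each point is a gene, filled where the adjusted p was 0.05 or less, the black bar is the list median and the dashed line the median of all genes. Lists are ordered by median, from erythroid genes at -1.50 to smooth muscle genes at 0.58, and filled points are few in each. Several medians change size or sign when 1 library is left out.

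Outside these groups, JUN, an immediate early transcription factor, was at 134 and 157 CPM in WT and 51.7 and 52.1 CPM in CF and fell by 1.49 ± 0.25 (adjusted p = 0.00454, 0.0502 without WT replicate 2). It was the 1 gene called of 20 stress and immediate early genes, of which the fit without CF replicate 2 called 1 higher and 3 lower. Of 13 genes of the mitochondrial genome 2 were lower, COX2 (2046 and 1829 against 670.3 and 1010 CPM, -1.20 ± 0.23) and ND2 (2000 and 1919 against 1325 and 1200 CPM, -0.63 ± 0.16). The COX2 call was lost without WT replicate 1 (adjusted p = 0.0919) or CF replicate 1 (0.0518), and the ND2 call without any 1 library (0.0681 to 0.205). PLK1, a mitotic kinase whose exons overlap the opposite-strand gene ERN2, was the 1 gene higher of 36 cell cycle genes (0.64 ± 0.15, adjusted p = 0.0278), a call kept only without CF replicate 2 among the fits that left out a library (0.0437, otherwise 0.0886 to 0.226). KDM5C, which escapes X inactivation in other mammals, was the 1 gene higher of 11 X-linked and sex genes (0.61 ± 0.15, adjusted p = 0.0288), likewise kept only without CF replicate 2 (0.0192, otherwise 0.131 to 0.190). DESeq2 called 2 higher and 2 lower of these 11 genes, and the 16 libraries before term 3 higher of the cell cycle genes. Of 25 hypoxia and glycolysis genes, 17 glucocorticoid response genes, 15 cartilage genes, 13 lymphatic and mesothelial genes, 25 imprinted genes and 17 markers of other tissues, 0 passed by edgeR on the 20 libraries. In that order 1, 0, 3, 0, 0 and 2 had an unadjusted p below 0.05. DESeq2 called 1 marker of other tissues higher, and so did the 16 libraries before term, which also called 1 hypoxia and glycolysis gene higher and 1 lower and 1 cartilage gene lower. Without CF replicate 2, 1 lymphatic or mesothelial gene was lower. GTL2 (chr18:64335882-64362055), an imprinted lncRNA expressed from the maternal allele and named here after its values were seen, was at 194 and 174 CPM in WT and 619 and 606 CPM in CF (1.73 ± 0.23, adjusted p = 0.00128).

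Whether these differences belonged to day 120 was tested as the genotype difference at day 120 minus that at other ages, and 0 genes passed. Against day 100 alone, 0 of 20084 genes passed at 0.05 (0.00%, edgeR), with 856 at an unadjusted p below 0.05 and 38 called by DESeq2. Against the mean of days 65, 80 and 100, 0 passed (0.00%), with 1275 at an unadjusted p below 0.05 and 129 called by DESeq2. Without CF replicate 2 these counts were 6 and 40, and without CF replicate 1 they were 2 and 1. At day 100 itself 1064 genes differed between genotypes (5.30%), and of the 880 genes called at day 120, 854 had the same direction at day 100 and 465 were also called. The corresponding numbers were 822 and 354 at day 65, where 1050 genes were called in all (5.23%), 842 and 442 at day 80, where 1188 were (5.92%), and 537 and 202 at term, where 3056 were (15.2%). Of the 880, 228 were called in the same direction at all of days 65, 80 and 100, and 291 at none of them, 180 of these higher and 111 lower in CF.

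The genes named above fell on both sides of this division. MYBPC3 was higher in CF by 2.52, 2.95 and 1.89 at days 65, 80 and 100 and by 4.34 at term, CDR1 lower by 4.44, 3.42 and 3.90 before day 120 but higher by 2.71 at term, where its 4 libraries were at 0.0703 to 0.877 CPM, and GTL2 was higher at each age (1.64 to 2.33). SFTPA1 was at 21.9 and 25.7 CPM in WT and 12.6 and 17.7 CPM in CF at day 100 (-0.65, adjusted p = 0.577), and at term stood at 3514 and 4464 CPM in WT and 3978 and 1054 CPM in CF. The difference of its genotype effect between days 120 and 100 was 3.24 ± 0.85 (unadjusted p = 0.00181, adjusted p = 0.743). C3 was at 42.0 and 53.6 CPM in WT and 27.1 and 22.9 CPM in CF at day 100, and the difference of its genotype effect between these days was 2.59 ± 0.49 (unadjusted p = 9.81e-05, adjusted p = 0.325). C5, RIPK3 and JUN, set against the mean of the 3 earlier days, gave unadjusted p of 1.03e-04, 5.25e-05 and 2.47e-04 and an adjusted p of 0.224 each. SCGB1A1 was at 0 to 0.648 CPM in the 12 libraries before day 120 and at 343 to 1417 CPM at term, and smooth muscle ACTA2 was higher in CF at days 65 and 80 (1.79 and 1.94) and lower at term (-1.60).

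**Figure D4:**
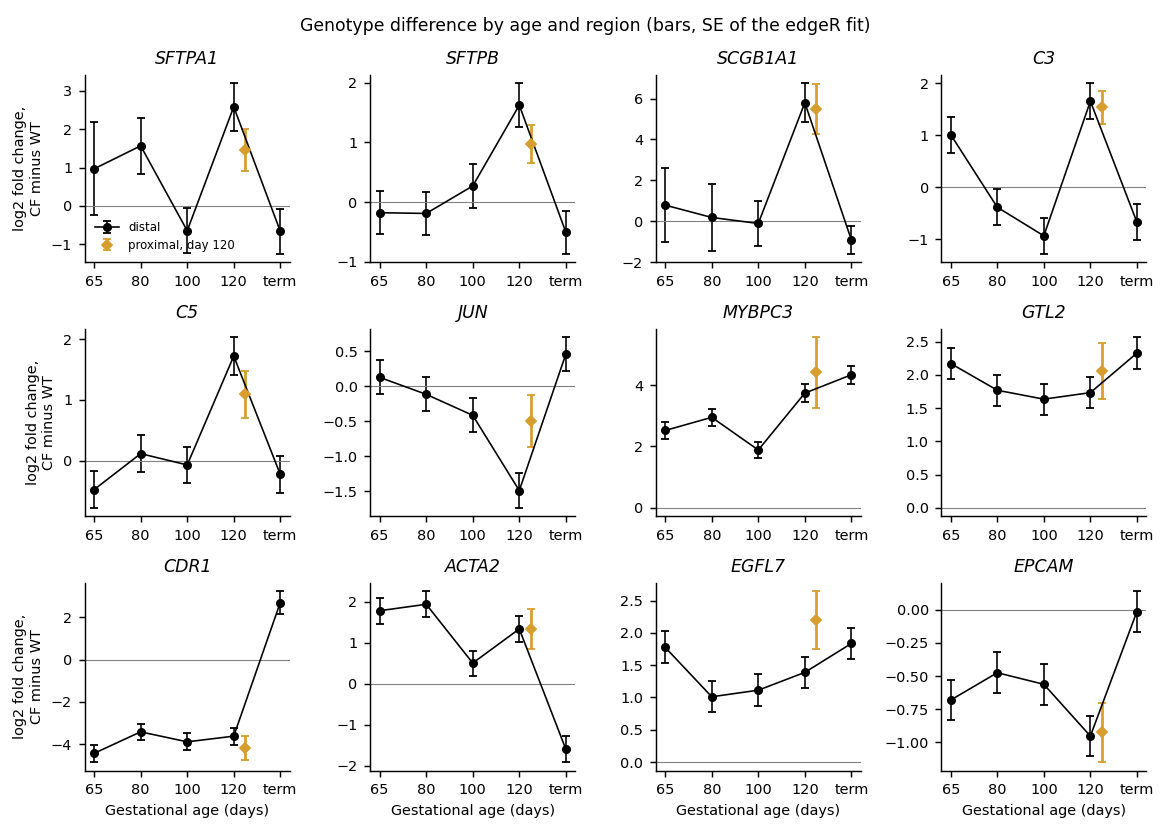
Genotype difference of 12 genes at each age. The horizontal axis is gestational age in days and the vertical axis the log2 fold change, CF minus WT, with bars for the SE of the fit. Black points are distal lung and the yellow diamond is proximal lung at day 120. SFTPA1, SFTPB, SCGB1A1, C3 and C5 lie near or below 0 at day 100 and well above it at day 120, whereas MYBPC3 and GTL2 are above 0 at every age and CDR1 turns from below 0 to above it at term.

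Summed over the list, AT2 transcripts were at 5097 and 5073 CPM in WT and 4707 and 5067 CPM in CF at day 100, at 5012 and 6040 CPM against 10100 and 11152 CPM at day 120, and at 19751 and 28920 against 37862 and 10383 CPM at term. Both CF sums also lay above both WT sums at day 65 (1583 and 2104 CPM in WT, 2544 and 2275 CPM in CF) and at day 80 (3298 and 2869 against 3369 and 4224 CPM), while the genotypes overlapped at term. A separation of the sums was therefore not particular to day 120. At day 80 it was narrow (3298 CPM in WT against 3369 CPM in CF), and at day 100 both CF sums lay below both WT sums. SFTPC, which did not pass, was a large part of the sum. The list median was 0.13, 0.25 and 0.18 at days 65, 80 and 100 against 0.55 at day 120. AT1 transcripts summed to 6737 and 5273 CPM in WT and 6215 and 5718 CPM in CF at day 120, after 2749 and 2834 against 2958 and 2480 CPM at day 100. Smooth muscle transcripts summed to 2830 and 2461 CPM in WT and 4242 and 3776 CPM in CF at day 120. Both CF sums were above both WT sums at each earlier age too (1726 and 2023 against 2932 and 2953 CPM at day 65, 1714 and 1729 against 3127 and 2388 CPM at day 80, 2511 and 2550 against 2874 and 2791 CPM at day 100) and below them at term.

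**Figure D5:**
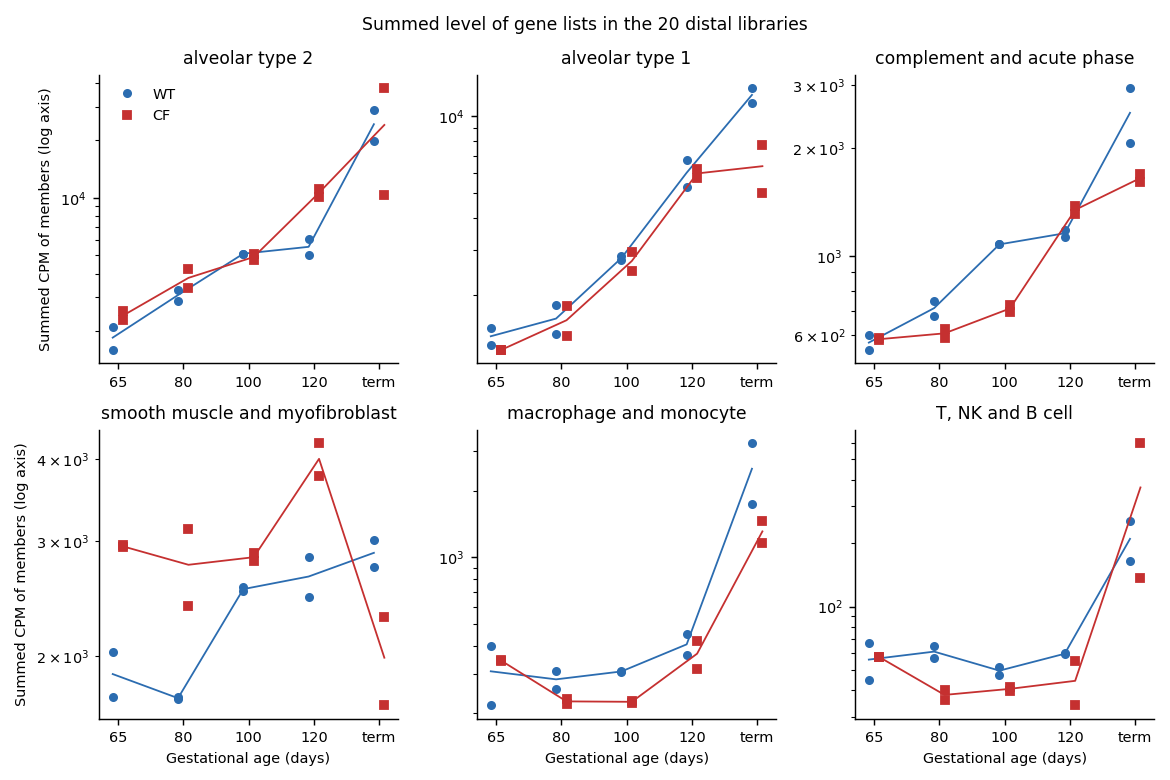
Summed CPM (log axis) of the members of 6 gene lists in the 20 distal libraries against gestational age in days. Points are libraries, blue for WT and red for CF, and lines join the group means. The AT2 sums of CF lie above those of WT at days 65, 80 and 120, with CF at 10100 and 11152 CPM at day 120, while the AT1 sums overlap or nearly so up to day 120.

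In proximal lung of the same 4 animals, 275 of 20344 genes were called at day 120 (1.35%), and of the 880 genes called in distal lung, 848 had the same direction and 217 were also called. The 2 regions share animals, so this repeats the tissue and not the fetus. Distal minus proximal, the genotype difference passed for 0 of 20779 genes (0.00%, edgeR with animal as a block; 1747 at an unadjusted p below 0.05, DESeq2 not run). This 0 rests on the libraries included, since without CF replicate 1 there were 1955 genes at 0.05 and 122 DEGs. SCGB1A1 was higher by 5.50 ± 1.24 in proximal lung (adjusted p = 0.0497), C3 by 1.54 ± 0.32 (0.0388), ABCA3 by 1.68 ± 0.32 (0.0306) and RIPK3 by 1.72 ± 0.31 (0.0255). SFTPA1 was at 557 and 461 CPM in proximal WT and 1596 and 1199 CPM in proximal CF (1.46 ± 0.56, adjusted p = 0.195), and SFTPB at 1049 and 860 against 1783 and 1956 CPM (0.97 ± 0.32, adjusted p = 0.142).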

How the data were processed

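RNA was extracted from frozen distal and proximal lung of CF and WT sheep fetuses, except that the WT animals of term had been born. The authors aligned reads to Oar_v4.0 with STAR (2.6 in the submitters' processing notes; the paper's methods name another release) and deposited whole-number counts per gene from featureCounts 1.6.3, with no normalisation. Strand and mate settings were not given in the sources used here; 73.5% to 78.1% of counts from 1 to 20 were even in the 4 distal libraries of day 120. A combined table held the same CF columns with identical values and was not used. There were 0 columns of other samples.

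From these counts, genes with enough reads (filterByExpr, minimum count 10, minimum total 15) were kept, 20084 of 24478, and TMM-scaled. All 20 distal libraries entered 1 edgeR 4.0.16 quasi-likelihood fit (R 4.3.3, limma 3.58.1) with a mean for each genotype and age, 10 residual degrees of freedom, and Benjamini-Hochberg adjustment over all genes. CF minus WT was tested at day 120, and that difference against day 100, against the mean of days 65, 80 and 100, and against proximal lung with animal as a block. CPM and fold changes are from this fit or its scaling. RPKM divides CPM by exon length. Counts of the 2 WT libraries of day 120 differed by a chi-square of 32.2 per gene and those of CF by 491, above sampling noise. This measure grows with depth, and the root mean square difference in log2 CPM was 0.966 in WT and 0.975 in CF. All were counted as separate libraries, though these values alone do not show separate animals. Counting floors cover counting error only.

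Genes were named by rule: those the study singled out, the 10 DEGs of largest difference in each direction (average log2 CPM of at least 1, with a symbol, both libraries of 1 genotype above both of the other), up to 6 called members of each list, or the 2 of smallest p, and the 2 defining genes of each list. The text describes the rule's genes of clearest role and gives the rest in list counts. Genes named outside the rule are marked as chosen after their values were seen. The members and lists were chosen with earlier results of these data known. Of 724 listed symbols, 661 were matched. Of the 8432 LOC identifiers, RefSeq gave 573 another symbol. On simulated counts of 19830 genes for the day 120 comparison, the fit called 4% of genes changed 1.5-fold, 34% at 2-fold, 86% at 4-fold and 92% at 8-fold. The changed genes, 50 of each size, were drawn only from genes above a CPM limit in WT, so genes of low level were not covered. Alternatives were RLE scaling, DESeq2 1.42.0, a bias-adjusted fit, no low-count filter, other limits, thinning to 24670355 reads, a gene length trend (span 0.3), a replicate block, other sets of libraries and leaving out each library.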

Additional observations from a re-analysis of the deposited data

How the results depend on the processing

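The 53 called genes followed through the alternatives, all those named in the text but ADCY4 and REC8, kept their direction under every alternative. For each called gene both libraries of 1 genotype lay above both of the other, so leaving out a library could hardly turn a sign. All 53 stayed called under RLE scaling, DESeq2, the bias-adjusted fit, thinning, the replicate block and a fit on the 16 libraries before term. Calls were lost for PLK1 and ND2 without a low-count filter and for ND2 with the length trend, and 1 of the 53 was left in a fit on the 4 libraries of day 120. Without WT replicate 1 or 2, 23 or 24 of the 53 stayed called, and without CF replicate 1 or 2, 34 or 46. The number of DEGs moved from 18 to 241 at an adjusted p of 0.01, 136 by glmTreat, 561 by DESeq2, 29 without a filter, 64 with 16 libraries and 0 with 4, and was 0 to 12 with a library left out. The 880 calls at 0.05 became 2123 by DESeq2 (1308 higher, 815 lower), 1831 with 16 libraries (1246 and 585) and 1 with 4 (0 and 1), and 96 to 1878 with a library left out (65 to 794 higher, 31 to 1084 lower). The length trend gave 445 lower. The share of calls higher in CF was 75.2%, but 61.6% by DESeq2, 61.9% with the length trend and 42.3% without CF replicate 2. Where genotype differences of day 120 and day 100 were compared, DESeq2 called 6 DEGs and 38 genes at 0.05, no filter and the length trend 1 each, and fits without a library 0 to 6. Against the mean of 3 days DESeq2 called 14 DEGs and 129 genes, and fits without a library 0 to 40. Distal against proximal, leaving out an animal gave 0 to 122 DEGs and 0 to 1955 genes at 0.05, the highest without CF replicate 1. The cause of these shifts was not tested. Among genes named but not called, the length trend turned SCNN1B to -0.039, and leaving out a library turned the sign of others: the log2 fold change ran from -0.76 to 0.56 for KNG1, -0.46 to 1.98 for CXCL8, -0.64 to 0.36 for SCNN1A, -0.35 to 0.61 for SCNN1B, -0.79 to 2.77 for SCGB3A2, -0.13 to 0.55 for TJP1, -0.13 to 0.69 for CDH1 and -0.031 to 0.32 for PECAM1. Depth in WT limits genes near 0.122 CPM.

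Replicate numbers did not pair the libraries: deviations from group means correlated over 0.1 in 17 of 45 pairs of groups (-0.21 to 0.41). With the replicate block there were 31 DEGs, 1398 calls at 0.05, 482 of them lower, and 1 gene in the comparison with day 100.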

Other observations

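The items here were chosen after their values were seen. Cytosolic ribosomal protein genes had a negative log2 fold change in all 80 cases, and both CF libraries lay below both WT libraries for 69 (19.5% of all genes). Of the 80 genes 6 were called lower, with a median log2 fold change of -0.83 (-1.95 to -0.12), where 1.09% of all genes were called lower. These values rest on single libraries: without CF replicate 1 the median was -0.39 with 1 called, without CF replicate 2 it was -1.55 with 70 called, and without WT replicate 1 or 2 0 were called. The replicate block called 42 and DESeq2 31. RPL39 was at 916 and 762 CPM in WT and 135 and 299.8 CPM in CF (-1.95 ± 0.40, adjusted p = 0.0140; -2.67 without CF replicate 2), and RPL5 at 2764 and 2696 against 867 and 1480 CPM (-1.22 ± 0.27, adjusted p = 0.0209). These genes are short, took 9.83% and 10.5% of CPM in WT and 3.73% and 7.81% in CF, and CF replicate 1 held the lowest share. Their median was -0.64 with the length trend taken out, -0.18 at day 65, -1.11 at day 80, -0.92 at day 100, 0.87 at term and 0.19 in proximal lung at day 120.

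NFATC4, RIPK3 and IRF9 lie close together. The interval from the first to the last of these was drawn around called genes, so its count includes the genes that prompted it and tests nothing. Of 20 genes tested in chr7:20409693-20603191, 5 were called higher and 0 lower, where 3.30% of all genes were called higher, the others being ADCY4, an adenylate cyclase (20.5 and 15.2 against 48.0 and 44.7 CPM, 1.38, adjusted p = 0.00735), and REC8, a meiotic cohesin (1.85 and 1.45 against 4.65 and 5.54 CPM, 1.63, adjusted p = 0.0151).

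On the X chromosome 729 genes were tested, 32 higher and 12 lower with a median of 0.03, against 630 higher and 206 lower of 19355 on other sequences (median 0.05).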
